A study of Mus musculus with 18 samples.

Results

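Foxa1, Foxa2, Foxa3, Hnf4a, Cebpa, Cebpb, Onecut1 and Prox1 are 8 genes that encode transcription factors of hepatocyte identity, chosen by name among the 21938 protein-coding genes of GENCODE vM21 on the mouse assembly mm10 (GRCm38). Each was followed over its gene body plus 50 kb on both sides, called its window below, and these windows were intersected with 6 lists of called regions from mouse liver. Lamin B1, a protein of the nuclear lamina, and H3K9me3, a histone mark of heterochromatin, were each profiled by ChIP-Seq in livers of wild-type C57BL/6 males, young (3 months) and old (21 months), in 2 biological replicates per age and antibody. Foxa2 was profiled in livers of males aged 12 weeks, either Zmpste24 KO mice or their wild-type littermates (WT), in 3 biological replicates per genotype. Zmpste24 is the metalloprotease that processes prelamin A, and the mutants carry a null allele in all tissues. The question was which of the 8 genes lie in lamin B1 domains and in H3K9me3 regions at each age, and where Foxa2 was bound around them, its own gene and its paralogues included.

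The replicates of each condition were merged before calling, and the lists give positions without a signal or a score. Every value below is therefore the value of 1 merged list, without a spread between replicates, and no difference between ages or genotypes could be tested. The study reports, for old against young livers, more aligned reads of H3K9me3 and fewer of lamin B1. The effect of this on the called regions was not tested. A gene that lacks a called region is not shown to lack the protein or the mark. The chromatin came from pieces of whole liver, so that a region called in hepatocytes and one called in other liver cells cannot be told apart, and lists of positions hold no marker genes by which the tissue could be checked. Lamin B1 was profiled in another set of wild-type mice than Foxa2, and the 18 samples hold no lamin B1 profile of Zmpste24 KO livers.

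The FoxA proteins belong to the forkhead family, whose winged-helix domain binds DNA and resembles linker histone. They are known as pioneer factors, since they can bind nucleosomal DNA before other factors do, and with Hnf4a, the C/EBP proteins and Onecut1 (HNF6) they form the network that binds the enhancers of liver genes and also the promoters of its own members. Lamin B1 lies beneath the inner nuclear membrane, and the chromatin that touches it forms long domains that are mostly silent and often carry methylated H3K9.

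Foxa2 sites were called at all 3 FoxA genes in both genotypes, 5 in WT and 4 in Zmpste24 KO livers. The stretches printed here are the central bases of these sites and, for the other factors, of the site nearest to the start site. They are centred on a forkhead word where the site had one and otherwise on the middle of the site, the pair over the Foxa2 start site is replaced by the promoter, and the WT site furthest from that start is not shown. Capitals mark the forkhead words that were searched, TGTTTAC and TATTTAC, on either strand (GTAAACA and GTAAATA read on the plus strand). The first stretches lie at the Foxa2 gene and at its paralogues, on the plus strand of GRCm38.
Foxa2 gene, WT and Zmpste24 KO, chr2:148040429-148040549: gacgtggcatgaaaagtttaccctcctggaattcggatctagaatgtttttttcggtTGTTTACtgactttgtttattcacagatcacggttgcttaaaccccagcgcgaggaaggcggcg
Foxa1, WT, chr12:57543339-57543459: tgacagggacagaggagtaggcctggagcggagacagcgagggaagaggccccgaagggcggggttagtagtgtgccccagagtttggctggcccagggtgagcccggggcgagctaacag
Foxa1, Zmpste24 KO, chr12:57534876-57534996: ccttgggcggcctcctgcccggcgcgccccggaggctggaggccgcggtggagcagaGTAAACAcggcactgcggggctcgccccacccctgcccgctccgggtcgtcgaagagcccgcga
Foxa3, WT, chr7:19010630-19010750: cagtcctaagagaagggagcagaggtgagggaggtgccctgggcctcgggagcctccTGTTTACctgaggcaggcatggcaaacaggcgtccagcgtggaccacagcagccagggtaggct
Foxa3, Zmpste24 KO, chr7:19007800-19007920: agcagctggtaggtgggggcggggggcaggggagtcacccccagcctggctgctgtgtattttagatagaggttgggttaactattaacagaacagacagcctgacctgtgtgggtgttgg
A forkhead word stood in the site that both genotypes shared near the Foxa2 gene, in the mutant site at Foxa1 and in the wild-type site at Foxa3.

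The stretches at the other factors follow, again on the plus strand. The stretch at Hnf4a comes from a site called in both genotypes and lies inside the site of each, that at Prox1 from a mutant site, and those at Cebpa and Onecut1 from WT sites.
Hnf4a, WT and Zmpste24 KO, chr2:163540720-163540840: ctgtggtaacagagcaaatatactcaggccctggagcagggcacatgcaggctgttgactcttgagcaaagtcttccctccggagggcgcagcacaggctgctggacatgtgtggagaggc
Cebpa, WT, chr7:35119779-35119899: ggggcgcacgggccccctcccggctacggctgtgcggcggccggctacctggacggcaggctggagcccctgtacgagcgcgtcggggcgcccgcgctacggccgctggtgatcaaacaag
Onecut1, WT, chr9:74866264-74866384: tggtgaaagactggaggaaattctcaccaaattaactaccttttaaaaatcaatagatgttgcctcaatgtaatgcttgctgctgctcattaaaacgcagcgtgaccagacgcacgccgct
Prox1, Zmpste24 KO, chr1:190174107-190174227: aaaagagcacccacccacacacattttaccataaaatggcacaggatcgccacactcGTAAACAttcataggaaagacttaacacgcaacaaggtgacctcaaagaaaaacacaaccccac
Foxa2 sites also lay over the start sites of Foxa2 itself and of Cebpa. The 250 bases before each of these start sites, from RefSeq on GRCm38.p6, are given on the strand of the gene, which is the minus strand for Foxa2 and the plus strand for Cebpa.
Foxa2 promoter, chr2:148046970-148047219: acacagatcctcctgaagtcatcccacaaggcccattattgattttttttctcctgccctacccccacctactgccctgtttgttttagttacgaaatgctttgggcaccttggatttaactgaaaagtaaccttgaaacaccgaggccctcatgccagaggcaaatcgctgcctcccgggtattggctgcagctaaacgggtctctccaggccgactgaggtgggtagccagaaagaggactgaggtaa
Cebpa promoter, chr7:35119043-35119292: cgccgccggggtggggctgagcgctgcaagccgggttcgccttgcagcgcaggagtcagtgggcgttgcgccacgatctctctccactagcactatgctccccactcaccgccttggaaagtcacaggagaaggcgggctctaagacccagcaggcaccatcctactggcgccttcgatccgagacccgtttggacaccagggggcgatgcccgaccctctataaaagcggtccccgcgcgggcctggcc
Neither stretch holds a forkhead word. No match says only that these letters are absent from the stretch.

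Lamin B1 domains were called in the windows of 6 of the 8 genes in young livers (Foxa1, Foxa3, Hnf4a, Cebpa, Cebpb and Onecut1) and of 7 in old livers, where Prox1 was added. The Foxa2 gene was the one without a domain at either age. Among all protein-coding genes, 44.4% had a domain in the window in young and 68.5% in old livers. The start sites of the same 6 and 7 genes lay inside the domains, against 36.0% of the start sites of all genes at 3 months and 62.3% at 21 months. At both ages 6 of the 8 were inside, against 31.8% of all. Young domains covered the windows of these 6 genes wholly (100%), and 21.8% of all genes were covered wholly. In old livers 6 windows were again covered wholly, against 49.6% of genes, and Foxa1 was covered in part.

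**Figure D1:**
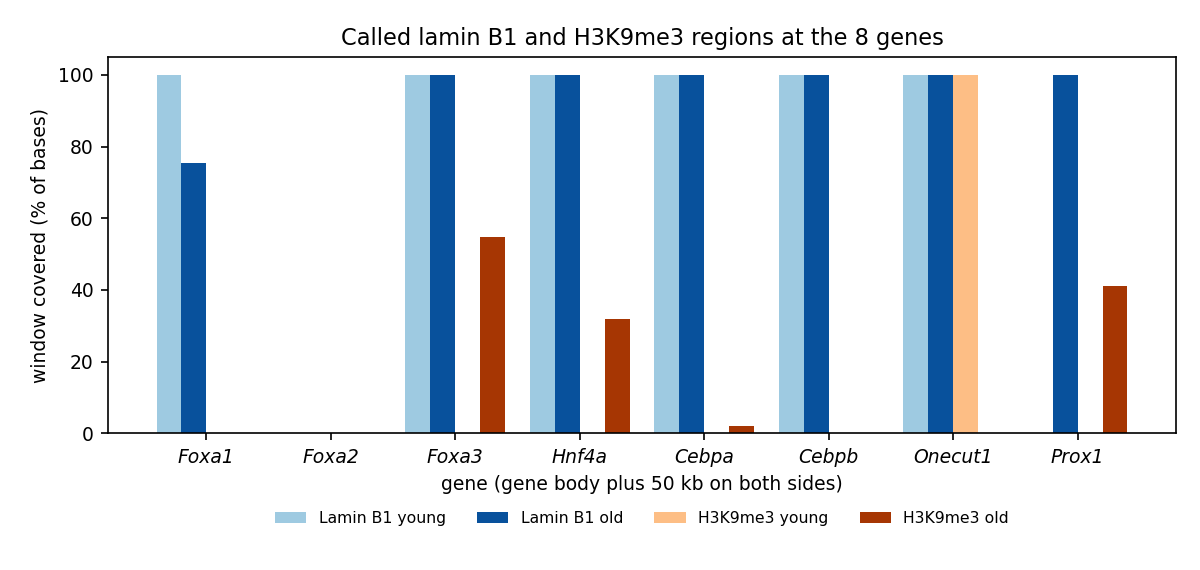
Percent of the bases of each window (gene body plus 50 kb on both sides, y axis) that lay in called lamin B1 and H3K9me3 regions of young and old livers, for the 8 genes (x axis). Bars are single values of merged lists. Foxa2 has no bar, Prox1 has lamin B1 in old livers only, and H3K9me3 is present at Onecut1 in young and at Foxa3, Hnf4a, Cebpa and Prox1 in old livers.

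The FoxA genes differed from each other in the lamin B1 domains called at them. Foxa1 (ENSMUSG00000035451.7, chr12:57540628-57546916, minus strand) is a paralogue that overlaps Foxa2 in function in the liver bud. It lay in a young domain of 400 kb (chr12:57310001-57710000) and in an old one of 80 kb (chr12:57500001-57580000), 0.20 times as long. The old domain still held the start site, whose distances to the domain edges were 33.1 and 46.9 kb, against 163 and 237 kb in young livers. Of the window, 75.3% was in a domain at both ages and 24.7% in young livers only. Its window also holds parts of Mipol1 and Ttc6.

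Foxa2 (ENSMUSG00000037025.11, chr2:148042877-148046969, minus strand) was the one gene of the 8 outside all 4 lists of lamin B1 and H3K9me3. The nearest young lamin B1 domain was 757 kb from the start site and the nearest old one 293 kb (chr2:148340001-148740000). The nearest H3K9me3 region was 953 kb away at 3 months and 557 kb away at 21 months. The window holds no other protein-coding gene. Among all protein-coding genes, 4117 (18.8%) had neither lamin B1 nor H3K9me3 in the window at either age, a state that Foxa2 shared with many genes.

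Foxa3 (ENSMUSG00000040891.6, chr7:19013284-19023538, minus strand), which is expressed in liver into adult life, lay in a gene-dense region with 6 other protein-coding genes in its window (Nova2, Nanos2, Mypop, Irf2bp1, Sympk and Rsph6a). Its domain was 280 kb long in young livers (chr7:18950001-19230000) and 1190 kb in old livers (chr7:18790001-19980000), 4.25 times as long. The window was covered wholly at both ages.

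Hnf4a (ENSMUSG00000017950.16, chr2:163506808-163572910, plus strand) encodes the orphan nuclear receptor that is required for hepatocyte differentiation. It lay in a young domain of 790 kb (chr2:163100001-163890000) and an old one of 1800 kb (chr2:162450001-164250000). Cebpa (ENSMUSG00000034957.10, chr7:35119293-35121928, plus strand), a leucine zipper factor of metabolic genes and of growth arrest, lay in domains of 440 kb (chr7:34980001-35420000) and 2630 kb (chr7:34390001-37020000). Cebpb (ENSMUSG00000056501.3, chr2:167688915-167690418, plus strand), its relative that acts in the acute phase response and in regeneration, lay in domains of 1000 kb (chr2:167230001-168230000) and 6710 kb (chr2:164350001-171060000). All 3 windows were thus covered wholly at both ages while the old domains were 2.28, 5.98 and 6.71 times as long.

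Onecut1 (ENSMUSG00000043013.10, chr9:74861921-74891781, plus strand), a cut-homeodomain factor of liver and bile duct development, lay in a domain of 400 kb in young livers (chr9:74800001-75200000) and of 240 kb in old livers (chr9:74800001-75040000), with the same upstream edge. The old domain was 0.60 times as long. Prox1 (ENSMUSG00000010175.13, chr1:190118035-190170714, minus strand), a homeodomain factor of hepatocytes and of lymphatic endothelium, had no young domain nearer than 4909 kb and lay in an old domain of 2680 kb (chr1:188680001-191360000). Its window went from 0 to 100% covered, and in no other gene of the 8 did the start site lie in a domain at one age only. Over all protein-coding genes, 62.3% of start sites lay in an old domain and 31.8% in a domain at both ages. A domain in old livers only was thus common among all genes.

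Where the start site lay in a domain at both ages, the old domain was thus longer for 4 of the 6 genes, against 74.7% of the 6970 genes with such a start site, and shorter for Foxa1 and Onecut1. The median ratio of old to young length was 3.26 over the 6 genes, from a median of 420 kb to one of 1495 kb. Over the 6970 genes it was 2.37, from 460 to 1170 kb.

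**Figure D2:**
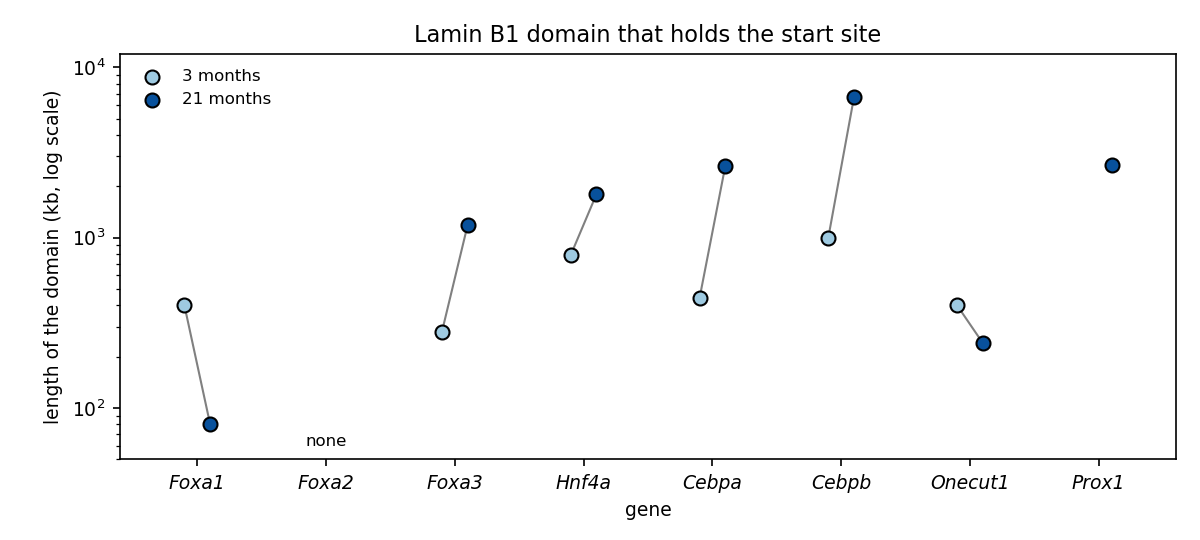
Length of the lamin B1 domain that holds the start site of each gene (y axis, kb, log scale) in young (light points, 3 months) and old (dark points, 21 months) livers, with a line between both values of a gene. The domain was shorter in old livers at Foxa1 (400 to 80 kb) and Onecut1 (400 to 240 kb), longer at 4 genes, called at Prox1 in old livers only (2680 kb), and absent at Foxa2.

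In the deposited lists, H3K9me3 regions reached fewer of the genes than lamin B1 and different ones at each age. In young livers Onecut1 alone had a region in its window (1 of 8, against 25.6% of all protein-coding genes), and in old livers Foxa3, Hnf4a, Cebpa and Prox1 had one (4 of 8, against 41.6%). The start site itself was inside a region for 1 gene at each age, Onecut1 in young and Hnf4a in old livers, against 12.9% and 24.4% of all start sites. All 4 genes with an old region had none in the young list, a pattern held by 24.5% of all genes. At Cebpa the old region only touched the edge of the window. With at least 10% of the window covered, 3 genes had old H3K9me3. The lists hold 1624 and 1519 lamin B1 domains and 2784 and 2496 H3K9me3 regions of young and old livers. The H3K9me3 lists hold fewer regions at both ages than the study describes for this mark, so that an absence of H3K9me3, a distance to it or a covered share holds for the deposited lists alone.

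At Onecut1 the young region (chr9:74800001-75010000, 210 kb) covered the whole window and began at the same base as the lamin B1 domain, and in old livers the nearest region was 358 kb away. At Hnf4a an old region of 470 kb (chr2:163040001-163510000) covered 32% of the window and ended 3.19 kb past the start site. The edges of the H3K9me3 regions here fall on steps of 10 kb. A distance of 3.19 kb is finer than this, so the start site may lie outside the mark. Hnf4a has a second start site in RefSeq, 40.3 kb further downstream at base 163547155, which was outside H3K9me3 at both ages. The upstream promoter of this gene is known as P2 and the downstream one, the main one of adult liver, as P1.

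Old H3K9me3 flanked the other genes without reaching their start sites. At Foxa3 regions of 130 kb (chr7:18860001-18990000) and 180 kb (chr7:19040001-19220000) lay on either side, 33.5 and 16.5 kb from the start site, and covered 54.7% of the window. At Prox1 regions of 400 kb (chr1:189720001-190120000) and 600 kb (chr1:190210001-190810000) lay 50.7 and 39.3 kb away and covered 41.1%. The gene bodies of Foxa3 and most of Prox1 thus stood in a gap between 2 regions. At Cebpa 1 region (chr7:35170001-35290000) covered 1.88% at the edge of the window, and a young region that ended at the same base began 60.7 kb from the start site, just outside the window. Cebpb was 191 kb from the nearest region at both ages, and Foxa1 147 kb from it at 3 months and 427 kb at 21 months.

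Foxa2 sites were called in the windows of 7 of the 8 genes in WT (all but Cebpb) and of 6 in Zmpste24 KO livers (all but Cebpb and Onecut1). Over all protein-coding genes 30.5% had a WT site and 38.5% a mutant site in the window, and 19.2% had a site of each genotype, as did 6 of the 8 genes. In number, 15 of 4960 WT sites (0.302% of the list) and 13 of 8177 mutant sites (0.159%) lay at the 8 genes. Per 100 kb of window this was 1.54 WT and 1.34 mutant sites, against 0.302 and 0.40 over the windows of all protein-coding genes. The mutant list is thus the longer one, yet 4 of the 8 genes (Foxa2, Hnf4a, Cebpa and Onecut1) had more WT than mutant sites, against 15.4% of all genes, and Prox1 alone had more mutant sites, against 25.0%.

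**Figure D3:**
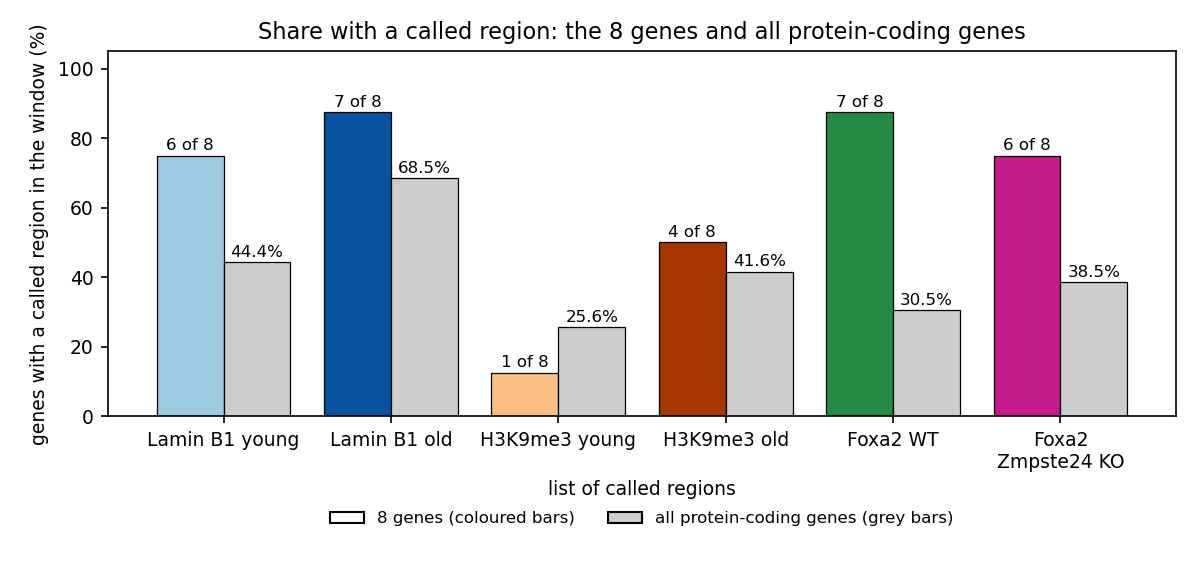
Percent of genes with a called region in the window (y axis) for each of the 6 lists (x axis), with the 8 hepatocyte factor genes as coloured bars and all 21938 protein-coding genes as grey bars. The 8 genes stand furthest above the grey bars for the Foxa2 lists (7 of 8 against 30.5% in WT, 6 of 8 against 38.5% in Zmpste24 KO) and below the grey bar for H3K9me3 in young livers (1 of 8 against 25.6%).

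At its own gene Foxa2 was bound in both genotypes. A WT site of 1007 bp (chr2:148046330-148047336) and a mutant site of 903 bp (chr2:148046401-148047303) covered the start site, and the mutant site lay wholly inside the WT one. They reached from the promoter printed above into the transcribed part of the gene. Of all protein-coding genes, 2.04% had the start site inside a WT site, 1.22% inside a mutant site and 0.451% inside a site of each genotype, and Foxa2 was the one gene of the 8 in the last group.

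A second pair of sites was centred 6.51 kb (WT, chr2:148040076-148040832) and 6.73 kb (mutant, chr2:148039856-148040622) downstream of the start site, past the 3′ end of the gene, over an exon of the noncoding gene 9030622O22Rik. The sites shared 547 bp, 72.3% of the WT and 71.3% of the mutant site, and the shared part holds the TGTTTAC word printed above. A further site, centred 22.8 kb downstream (chr2:148023681-148024718) in an intron of the same noncoding gene, was called in WT only. With 3 WT sites the gene stood among the 2.91% of genes with at least as many, and with 2 mutant sites among 13.1%. None of these sites lay in lamin B1 or H3K9me3 at either age, since the whole window was outside.

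At the paralogues each genotype had 1 site per gene. At Foxa1 the WT site of 1241 bp (chr12:57542779-57544019) lay over the coding sequence, 3.52 kb downstream of the start site, and the mutant site of 874 bp (chr12:57534582-57535455) lay beyond the 3′ end, at 11.9 kb. At Foxa3 the WT site of 338 bp (chr7:19010543-19010880) and the mutant site of 368 bp (chr7:19007677-19008044) were both intergenic, past the 3′ end of the gene, at 12.8 and 15.7 kb. No site at a paralogue was called in both genotypes, as was the case for most sites of either list (27.2% of WT and 16.7% of mutant sites were called in both). All 4 lay in lamin B1 domains at both ages and outside H3K9me3. A window with 1 site was common, held by 30.5% of genes in WT and 38.5% in the mutant list when genes with more sites are included.

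**Figure D4:**
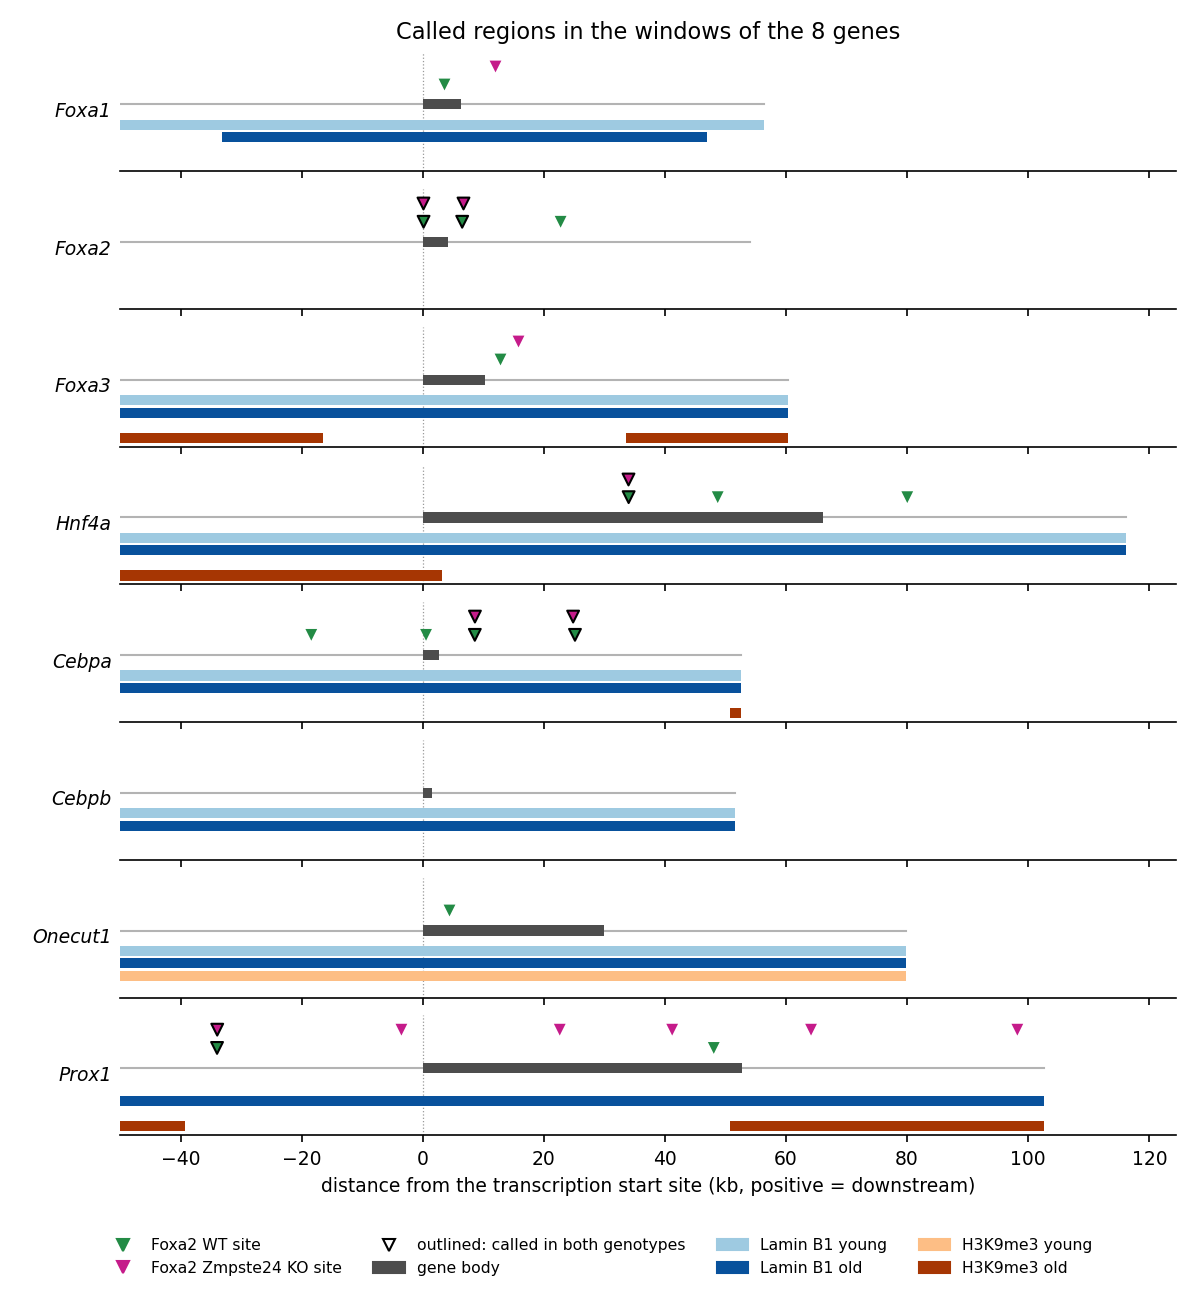
Called regions along the windows of the 8 genes, with distance from the start site in kb on the x axis (positive is downstream on the strand of each gene). Triangles are Foxa2 sites of WT (green) and Zmpste24 KO livers (magenta), outlined in black where called in both genotypes, and bars below each gene are lamin B1 and H3K9me3 regions by age. Sites called in both genotypes stand at Foxa2, Hnf4a, Cebpa and Prox1, and the window of Prox1 holds 6 mutant sites against 2 WT sites.

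At Hnf4a a site in an intron, 34.0 kb from the annotated start, was called in both genotypes (WT, chr2:163540590-163541039, and mutant, chr2:163540479-163541082), and the WT site lay wholly inside the mutant one. Measured from the P1 start it stood at -6.34 kb in WT and -6.38 kb in mutants, on the upstream side. WT sites at 48.7 kb (chr2:163555246-163555805) and 80.0 kb (chr2:163586514-163587149), the first in an intron and the second past the gene, had no mutant counterpart. All were inside lamin B1 domains of both ages and outside the old H3K9me3 region.

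Cebpa had the most WT sites of the 8 genes, 4, a number reached by 0.912% of all genes. The longest of them (chr7:35119008-35120671, 1664 bp, GC content 71.0%) ran from the promoter printed above over the start site and into the coding sequence of this single-exon gene, and it was called in WT only. Sites at 8.6 kb (chr7:35127591-35128197) and 25.1 kb (chr7:35143829-35145044) were called in both genotypes, with 569 and 616 bp shared, and each held a forkhead word. The fourth WT site was upstream, at -18.4 kb (chr7:35100517-35101256). Both mutant sites (chr7:35127629-35128199 and chr7:35143814-35144444) were thus ones also called in WT, and the window lay in lamin B1 domains throughout.

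Cebpb had no site in its window in either list, and the nearest was 135 kb downstream in both genotypes (WT, chr2:167823527-167823852, and mutant, chr2:167822933-167824207). Onecut1 had 1 WT site of 1659 bp at 4.40 kb (chr9:74865495-74867153), over an exon of one of its noncoding transcripts inside lamin B1 at both ages and inside the young H3K9me3 region. The nearest mutant site was at -60.7 kb (chr9:74801044-74801477), outside the window. The C/EBP genes thus differed in their sites, with 4 WT sites at Cebpa and 0 at Cebpb, and both windows were wholly in lamin B1.

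Prox1 was the gene with the most mutant sites, 6 against 2 in WT, and 0.333% of all genes had at least as many mutant sites. That share takes no account of window length, and the window of Prox1, at 153 kb, is a long one. Within 50 kb of the start site 4 mutant and 2 WT sites were left, and in the gene body 2 and 1. One site, upstream at -34.0 kb in WT (chr1:190204465-190204906) and -33.9 kb in mutants (chr1:190204074-190205238), in an intron of the antisense gene Prox1os, was called in both genotypes. The sites called in mutants only were spread over the window. The nearest to the start site was at -3.52 kb (chr1:190173826-190174649) and is the one printed above. Further ones lay at 22.6 kb over coding sequence (chr1:190147044-190149132, 2089 bp), at 41.2 kb in an intron (chr1:190128978-190130057), and at 64.1 and 98.2 kb past the gene (chr1:190105980-190107185 and chr1:190072156-190072864). The WT-only site was at 48.1 kb in the UTR (chr1:190122292-190123005). Every one of these sites was outside lamin B1 in the young list and inside it in the old list, and those at 64.1 and 98.2 kb also lay in the old H3K9me3 region. Without Prox1 the 8 genes would hold 13 WT and 7 mutant sites.

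Sites called in both genotypes made up 6 of the 15 WT sites, against 27.2% of the whole WT list, and 6 of the 13 mutant sites, against 16.7%. They stood at Foxa2 and Cebpa (2 each) and at Hnf4a and Prox1 (1 each). The sites at the 8 genes were of ordinary width, with a median of 740 bp in WT (338 to 1664 bp) and 824 bp in mutants (368 to 2089 bp), against 941 and 889 bp over the lists. Of them, 7 WT and 4 mutant sites overlapped the gene body of the factor, and 5 and 6 were intergenic. Shares by position over the whole lists are not given here, so these counts are description only.

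Of the 15 WT sites, 10 had the middle in a young lamin B1 domain and 12 in an old one, against 35.5% and 63.5% of all WT sites. Of the 13 mutant sites, 5 were in young and 11 in old domains, against 28.0% and 49.2%. The 6 mutant sites of Prox1 account for the gap between 5 and 11. These lamin B1 counts follow from the windows, which were covered wholly or not at all, apart from Foxa1 in old livers. They are therefore not a separate result on where Foxa2 was bound. In H3K9me3 stood 1 WT site in the young list (at Onecut1, against 19.4%) and none (0) in the old list (against 22.9%). Of the mutant sites, none (0) stood in young H3K9me3, against 21.6%, and 2 in old H3K9me3, both at Prox1, against 22.4%. H3K9me3 covered a median of 0% of the 8 windows in young and 0.939% in old livers, against 0% at each age over all protein-coding genes.

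A forkhead word was present in 7 of the 15 WT sites, against 43.8% of the WT list, and in 7 of the 13 mutant sites, against 40.8%. TGTTTAC was in 6 of the sites in each genotype, against 27.7% and 23.4% of the lists. Over the whole lists a word was more frequent in sites called in both genotypes (62.2% of WT and 61.2% of mutant sites) than in sites called in one (37.0% and 36.8%), and at the 8 genes 3 of the 6 shared sites held one, at the Foxa2 gene and Cebpa. No site over a start site, in WT at Foxa2 and Cebpa and in mutants at Foxa2, held a word. The mutant site of Prox1 at -3.52 kb held 2 words, the most of any site at the 8 genes. A match is a description of the letters and not evidence of contact.

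All 8 genes had RefSeq promoters, 12 in number since Foxa2 has 3 start sites there and Hnf4a and Prox1 a pair each. Each promoter is the 250 bases before and 50 after a start. Of the 12, 1 (Foxa1) held a forkhead word, against 6.54% of 32851 promoters. The Foxa2 promoter at base 148046969 overlapped a site of each genotype, that of Cebpa overlapped a WT site, and the other 10 overlapped none. The share of all promoters that overlapped a site is not given here. The windows of the 8 genes had a median GC content of 46.6%, against 44.3% over all genes, from 42.9% at Foxa1 to 52.7% at Cebpb, the gene without a site. The density of forkhead words per kb of window was highest at Foxa1 (0.405) and lowest at Cebpb (0.138).

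Among 18 other hepatocyte factor genes, 13 had a WT site and 13 a mutant site in the window, and 11 had both. The shares, 72.2% in each list, were near those of the 8 genes, 87.5% in WT and 75.0% in mutants. Examples are Hhex (2 WT sites and 1 mutant site), a homeobox factor of the early liver bud, and the nuclear receptor Nr5a2 (2 and 3). Of these 18, 12 had the start site in lamin B1 at both ages, as 6 of the 8 did, 3 in old livers only and 1 in young livers only. The share over all genes was 31.8% at both ages. Counted at each age, 15 of the 18 were inside in old livers, against 62.3% of all genes, and 13 in young livers, against 36.0%. These shares include genes inside at both ages, so they are no background for the counts at 1 age only. Cebpd, of the C/EBP family, was the gene inside in young livers only, with 87.7% of the window covered in young and 0% in old livers. Foxo1, Foxo3 and Klf15 went from 0 to 100% as Prox1 did.

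Of the 41 other forkhead genes, 10 (24.4%) had a site in the window in WT, 19 (46.3%) in mutants and 8 in both, and of the 3 FoxA genes all had a site of each genotype. Foxh1 (1 WT and 2 mutant), Foxj2 (2 and 3) and Foxn1 (1 and 1) are among those that had both. Of the 41, 23 had the start site in lamin B1 in old livers only, Foxb1, Foxc1, Foxc2 and Foxd1 being the first of them, and 11 at both ages. Counted in old livers whatever the young state, 34 of the 41 had it there, against 62.3% of all genes. The share at both ages was 31.8% of all genes. The 62.3% includes genes inside at both ages, so it is not a background for the 23. Foxo1 and Foxo3 belong to both lists. Among 16 lineage factors of other cell types, 5 (31.2%) had a WT site, 6 (37.5%) a mutant site and 3 (Cdx2, Pdx1 and Erg) both. Old H3K9me3 covered a median of 68.7% of the windows of these 16, 24.7% of those of the other forkhead genes, 8.22% of those of the other hepatocyte factors and 0.939% of those of the 8 genes. Over all protein-coding genes the median was 0%, so the 8 genes were not below the typical gene. These lists were not tested against each other.

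The pattern of Foxa2 itself, with neither lamin B1 nor H3K9me3 at either age and a Foxa2 site of each genotype, was held by 314 genes (1.43%), and by 38 (0.173%) with at least 3 WT and 2 mutant sites. By the distance over the 4 covered shares and both numbers of sites, 10 genes on other chromosomes had the same values as Foxa2, of which Adcy2, Ankrd17 and Ccdc7a come first in the alphabet.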

How the data were processed

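Snap-frozen liver from 18 samples was profiled by ChIP-Seq (lamin B1, H3K9me3 and H3K9me2 at both ages, and Foxa2 in both genotypes). The authors mapped the reads with BWA to mm10, filtered duplicates (Picard), retained unique alignments with a phred score of at least 20 and pooled the replicates. Lamin B1 domains were called with Epic (windows of 10 kb, gap size 3), and Foxa2 peaks with PeakSeq against input, for which the larger mutant read set was reduced to the size of the wild-type one. The caller of the H3K9me3 regions is not given in the sources used here, and only the names of these lists give their age. The 6 deposited lists hold positions only, so depth and replicate spread cannot be read from them. H3K9me2 was not analysed here.

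Positions are given with the first base as 1. Overlap meant at least 1 bp, a site or start was inside a region by its middle or its base, and distances to Foxa2 sites run from the start site to the middle of the site, negative upstream. The 8 genes and all gene lists were chosen with earlier results of these data known. Of the other lists, up to 4 genes were named in list order, those with sites in both genotypes and those with the start site in lamin B1 at 1 age only. Some genes that this rule names are not reported here. Sequence was taken for the 6 sites nearest to the FoxA start sites and for the nearest site at each other gene. This left out Foxa3, whose stretches were added after the values were seen. Stretches of more than 30 UTR bases at the Foxa2 start were replaced by the promoter, and a planned protein stretch was not printed. Shares over all 21938 protein-coding genes of GENCODE vM21, or over all sites of a list, serve as background, and no test was run. The overlap code was tested on simulated data. Python 3.11.15, numpy 2.4.6, pandas 2.3.3, pyfaidx 0.9.0.4 and matplotlib 3.10.9 were used.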

Additional observations from a re-analysis of the deposited data

How the results depend on the processing

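Of 100 values recomputed under other settings, 81 stayed within 1.5 times the reported one and 19 moved, nearly all with the length of the flank. With the gene body alone (flank 0 kb), 2 genes had old H3K9me3 in place of 4, 3 had a mutant Foxa2 site in place of 6, and 7 WT and 4 mutant sites were left of 15 and 13. At the Foxa2 gene 1 site was left in each genotype, at its paralogues 1 in WT and 0 in mutants, and 0 genes had 50% of the window in old H3K9me3, where the reported count is 1. With 10 kb, 2 genes had old H3K9me3 and 0 had 50% covered. With 100 kb, 2 genes had young H3K9me3 and 2 had 50% covered in old livers. WT sites then numbered 25, with 5 at the Foxa2 gene and 5 at its paralogues, which also held 4 mutant sites. Among sites with a forkhead word, 7 WT and 7 mutant ones were left. Windows of 50 kb around the start site, autosomal genes as background, sites with a word and the 50% share were settings chosen after seeing the data. The count of genes with their start site in lamin B1 was recomputed with any transcript start and without regions shorter than 50 kb. Neither setting could move it. The domains at these genes were at least 80 kb long, and the windows of the genes not counted held no domain.

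No paired analysis was possible because replicates were merged before calling and the lists carry no replicate values. For the same reason leaving out a replicate or raising the score of the calls was not possible. Depth is not in the lists, and a gene without a called region is not shown to lack the mark.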
